A study of Rattus norvegicus with 24 samples.

Results

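The BRD0476 by cytokine interaction at 12 h is the difference between 2 differences: the log2 change that cytokines made in cells given BRD0476, minus the log2 change that they made in cells given the vehicle DMSO. It was computed for all 14217 genes that the array annotation names, from 12 of the study's 24 arrays, 3 in each of 4 groups. All 12 arrays measured total RNA of INS-1E cells, a rat insulinoma line that makes insulin. The groups were DMSO without cytokines, DMSO with cytokines, 10 uM BRD0476 without cytokines and 10 uM BRD0476 with cytokines, each for 12 h. The cytokine mixture held IFN-g at 50 ng/ml, TNF-a at 25 ng/ml and IL-1b at 10 ng/ml. The other 12 arrays repeat this layout at 6 h. The labels give replicate numbers but do not say that replicates were separate cultures, so p-values measure the spread between these arrays, which may be technical. A negative interaction means that the cytokine change was lower with BRD0476 than with DMSO, and a positive one that it was higher. Values are log2 intensities, so 1 unit is a doubling.

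As background, the 3 cytokines are those that immune cells release in the islets in type 1 diabetes, and together they injure beta cells. IFN-g binds a receptor that uses the kinases JAK1 and JAK2, and the signal reaches GAS elements, among them one in the promoter of Irf1. The Irf1 product acts on ISRE elements of antiviral and antigen-presentation genes. IL-1b and TNF-a act through other receptors on NF-kappaB, which binds κB elements and induces its own inhibitor Nfkbia. BRD0476 was found as a small molecule that lowers cytokine-induced death of beta cells, and has been reported to lower JAK-STAT signalling with the deubiquitinase USP9X as a proposed target.

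The beta-cell label held in the arrays: all 11 measured beta-cell markers lay above the lower quartile of all values (3.84) in each of the 4 groups, with a median level of 12.5. Ins1 and Ins2 were near 14.6 and 14.4 in every group. Markers of other lineages had median levels between 3.64 and 4.07. Gcg, the glucagon gene, was far above them, with group means between 9.93 and 10.5, and Pdgfra (5.11 to 6.55), Kdr (4.37 to 6.46) and Pdgfrb (5.11 to 5.25) were also higher. Of all marker genes of other lineages, Pdgfra and Kdr had a called interaction. The summed level of the beta-cell markers ran from 16.5 to 16.7 over the 12 arrays, and was lowest in DMSO with cytokines. In bulk RNA, fewer cells of a type and less RNA per cell cannot be told apart. Arrays of a group at 12 h correlated with r between 0.992 and 0.998. The array farthest from its group mean was replicate 3 of DMSO with cytokines, with a root mean square deviation of 0.20 against 0.08 to 0.15 for the other 11.

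The largest interactions at 12 h were cytokine responses that were smaller with BRD0476, led by Cxcl9 (-7.92) and C1s (-5.54). With limma, 2170 of 14217 genes (15.3%) had an interaction at a Benjamini-Hochberg adjusted p under 0.05, referred to as called. Of these, 1191 (8.38%) were positive and 979 (6.89%) negative, and 3611 genes had an unadjusted p under 0.05. The larger interactions were mostly negative: 328 called genes (2.31%) were at -1 or below and 115 (0.809%) at 1 or above. Centring each array on its median turned the split of called genes into 811 positive and 1105 negative, since it moved the median over all genes from 0.03 to -0.04. The genes on either side of the threshold were Cad, at 0.49 ± 0.16 (SE, adjusted p = 0.05 after rounding), and Cst6, at 0.21 ± 0.07 (adjusted p = 0.0501).

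The simple effects that make up the interaction show where it came from. Cytokines changed 6528 genes with DMSO (45.9%) and 3938 with BRD0476 (27.7%). BRD0476 changed 663 genes without cytokines (4.66%) and 3827 with them (26.9%). Without cytokines those of at least 1 in size were 12 up (0.0844%) and 4 down (0.0281%), against 121 up (0.851%) and 328 down (2.31%) with cytokines. Of the 443 called interactions of 1 or more in size, 12 had a larger BRD0476 change without than with cytokines.

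**Figure D1:**
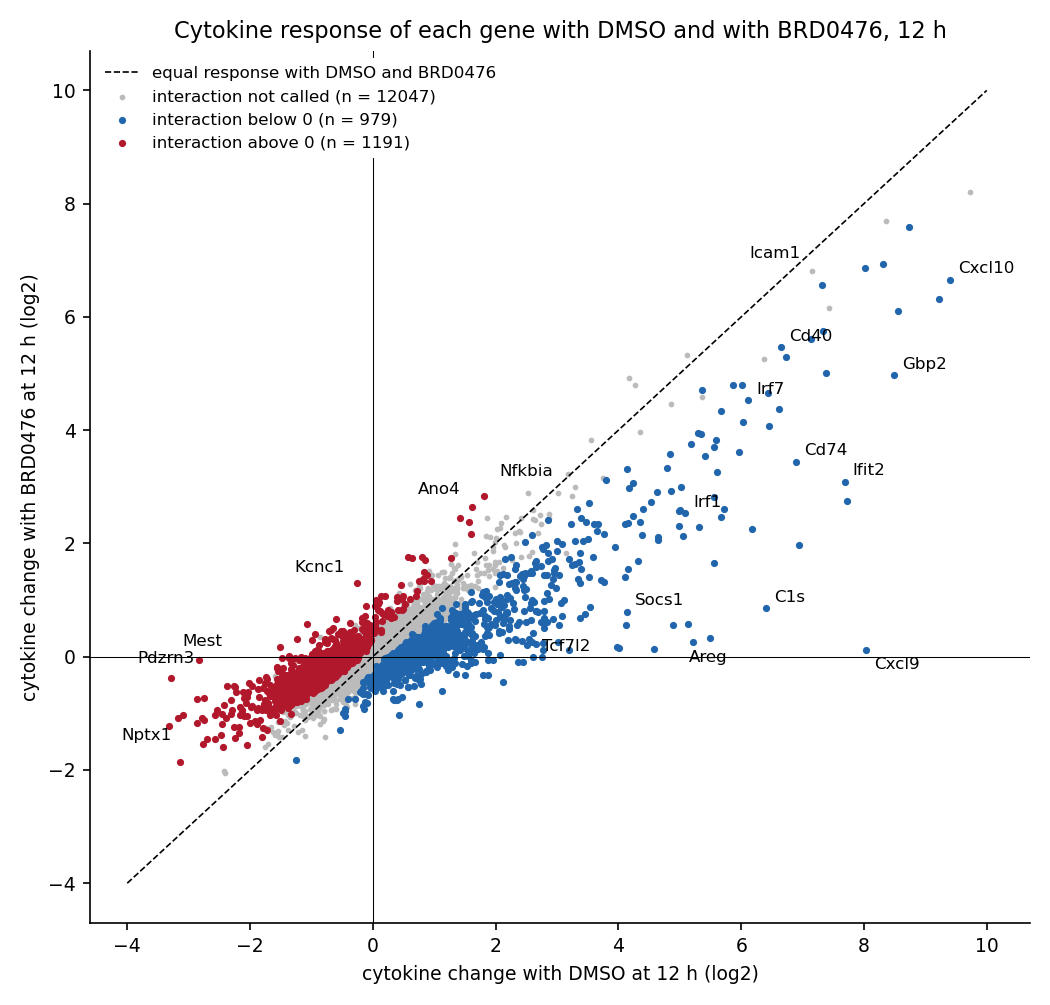
Log2 change with cytokines in DMSO (x axis) against that with BRD0476 (y axis) at 12 h for 14217 genes. Blue points (979) have a called interaction below 0 and red points (1191) one above 0; Cxcl9 lies 8.04 to the right and 0.12 up, while Icam1 and Nfkbia lie close to the dashed line of equal response.

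To describe the response without choosing genes on the arrays that measure it, genes were taken that cytokines raised or lowered by at least 1 in DMSO at 6 h. The 887 raised genes had a median cytokine change at 12 h of 1.15 with DMSO and 0.60 with BRD0476. Their median interaction was -0.44, against 0.03 over all genes, and 405 were called negative and 31 positive. Without replicate 3 of DMSO with cytokines this median was -0.57. The 717 lowered genes changed by a median of -0.83 with DMSO and -0.44 with BRD0476, with a median interaction of 0.39, 333 called positive and 9 negative. The slope through the origin of the change with BRD0476 on the change with DMSO was 58.9% for the raised and 48.3% for the lowered genes. The median interaction was -0.28 in the 606 genes raised by 1 to 2, -0.996 in the 197 raised by 2 to 4 and -1.73 in the 84 raised by 4 or more. For the last set the median cytokine changes were 5.37 and 3.11, and 72 had a called negative interaction and 0 a positive one. In the same order, the slopes of these sets were 50.35%, 53.39% and 64.22%. On the log2 scale, the share kept was thus not smaller in the most strongly raised genes. Shares of linear intensity differ from these, and slopes on that scale were not computed. Cxcl10 kept 70.8% of its log2 change and 13.7% of its linear change, and Icam1 95.3% and 65.1%.

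The largest interaction belonged to Cxcl9, a chemokine that draws T cells and is a standard target of IFN-g. It read 3.97, 4.33 and 4.40 in DMSO, 12.31, 12.32 and 12.18 in DMSO with cytokines, 3.91, 4.66 and 4.02 in BRD0476, and 4.27, 4.40 and 4.28 in BRD0476 with cytokines. The arrays with DMSO and cytokines stood alone, and both BRD0476 groups overlapped with untreated cells. Cytokines raised it by 8.04 ± 0.23 with DMSO, and the difference with BRD0476 was 0.12 ± 0.23 (adjusted p = 0.768), which gave an interaction of -7.92 ± 0.33 (SE, adjusted p = 8.22e-13). C1s, a protease of the classical complement pathway, read 10.04, 9.78 and 9.91 with DMSO and cytokines and 4.50, 4.59 and 4.47 with BRD0476 and cytokines, against 3.38, 3.41 and 3.74 in DMSO alone and 3.73, 3.45 and 3.81 in BRD0476 alone. With BRD0476 a rise of 0.86 ± 0.12 was left, against 6.40 ± 0.12 with DMSO. Mpeg1, which encodes the pore-forming protein perforin-2, rose by 5.50 with DMSO and 0.33 with BRD0476 (interaction -5.17 ± 0.17, or -2.99 with the mean of its probe sets).

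The other 7 of the 10 most negative interactions were Gbp4 (-4.96), Areg (-4.95), Ifit2 (-4.59), Ifitm3 (-4.56), Plaat3 (-4.44), Sectm1b (-4.34) and the locus RGD1309362 (-4.98). They did not all lose the response to the same degree. Plaat3, a phospholipase and acyltransferase, rose by 4.58 ± 0.14 with DMSO and read 0.14 ± 0.14 above its control with BRD0476. Areg encodes amphiregulin, a ligand of the EGF receptor. It read 3.89, 3.62 and 3.47 in DMSO, 8.85, 8.70 and 9.08 with DMSO and cytokines, 4.79, 4.71 and 4.66 in BRD0476, and 4.74, 4.73 and 5.48 with both. BRD0476 alone raised Areg by 1.06, and both groups given BRD0476 overlapped. Ifit2, an antiviral protein that binds RNA, kept a rise of 3.09 ± 0.13 of its 7.68 ± 0.13, and Gbp4, a guanylate-binding protein, a rise of 1.97 of 6.94.

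**Figure D2:**
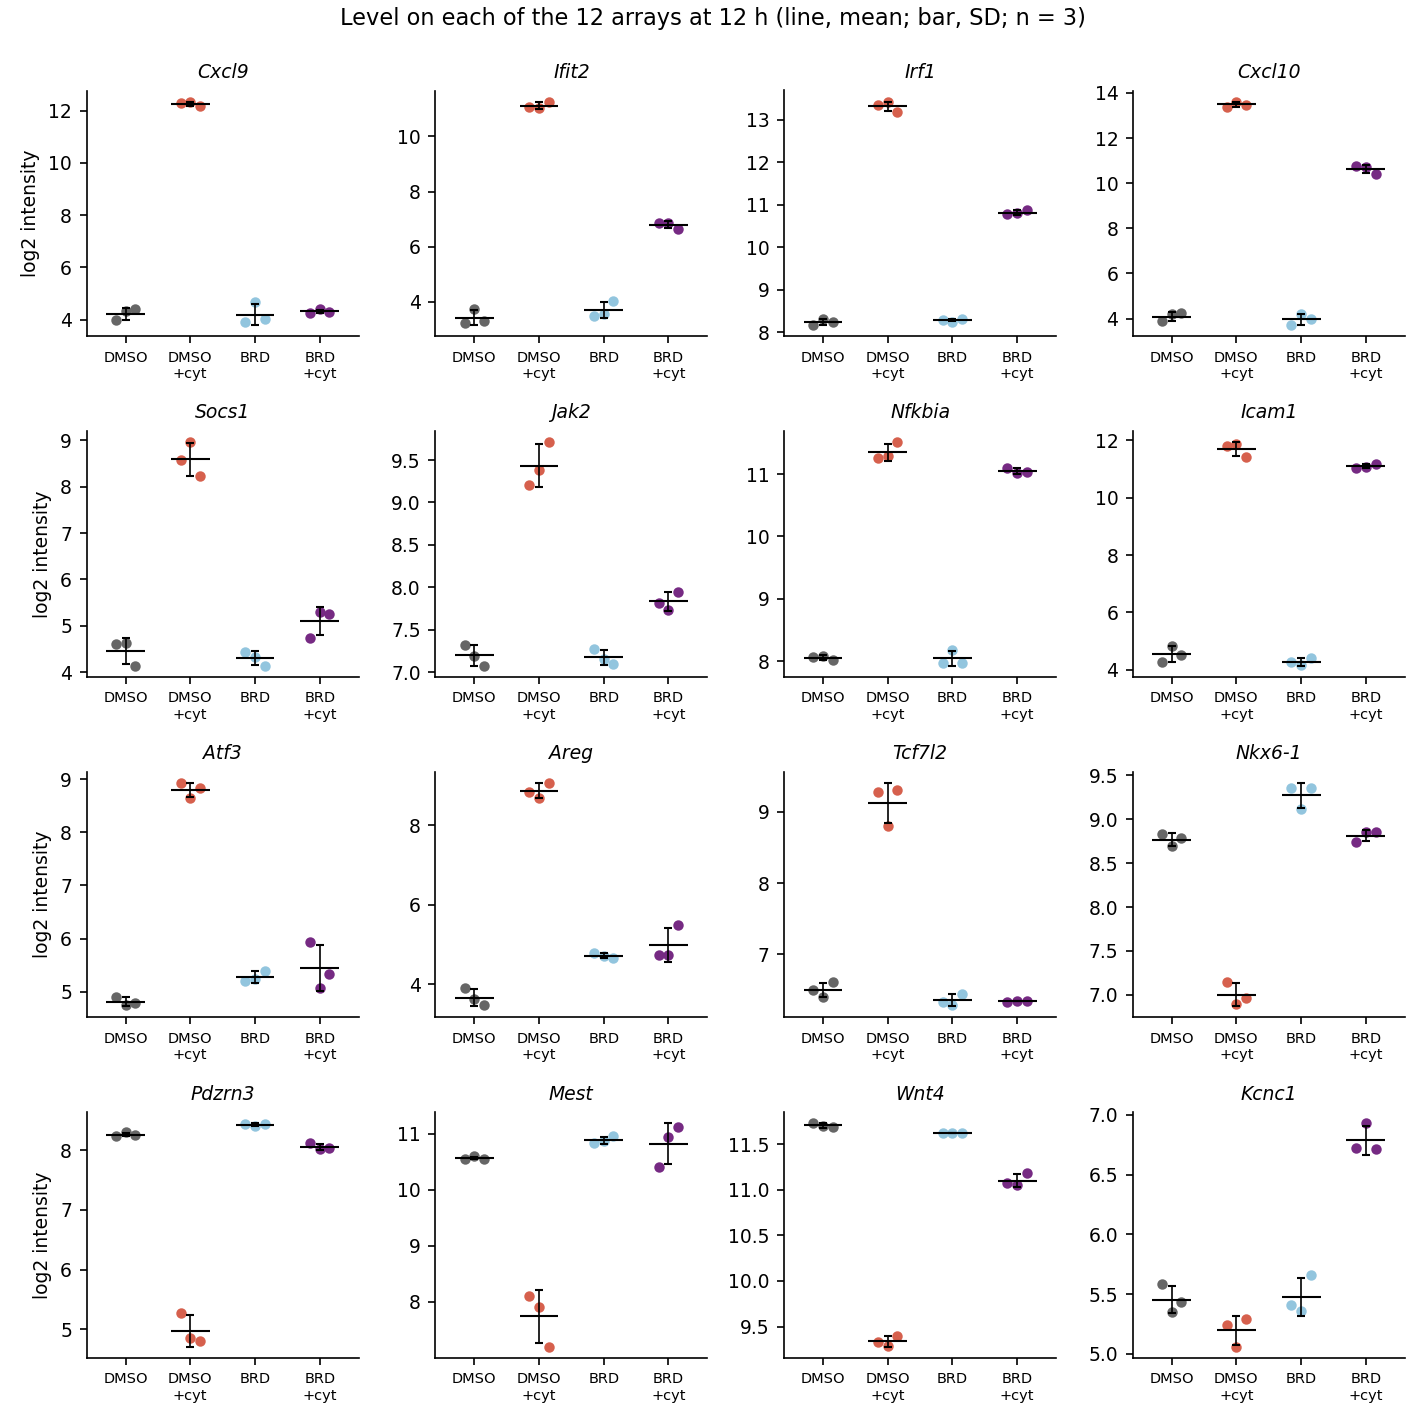
Log2 intensity (y axes, which do not start at 0) of 16 genes on each of the 12 arrays at 12 h, by group, with the mean (line) and SD (bar) of 3 arrays. Cxcl9 with BRD0476 and cytokines (BRD +cyt) lies at 4.27 to 4.40, among the groups without cytokines, whereas Nfkbia in that group lies at 11.01 to 11.10, close to its level with DMSO and cytokines.

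Among the components of IFN-g signalling, the receptor genes named below had no called interaction, while several members that cytokines raised did. Of 27 measured receptors, JAKs, STATs and SOCS or phosphatase regulators, 6 were called negative and 1 positive, with a median of -0.14. Jak2 read 7.32, 7.19 and 7.08 in DMSO, 9.20, 9.38 and 9.71 with DMSO and cytokines, 7.28, 7.16 and 7.10 in BRD0476, and 7.82, 7.73 and 7.95 with both. Its arrays with BRD0476 and cytokines lay above all without cytokines and below all with DMSO and cytokines, at an interaction of -1.58 ± 0.19 (adjusted p = 3.84e-06). Socs1, which encodes the feedback inhibitor of JAK kinases, rose by 4.13 ± 0.20 with DMSO and by 0.79 ± 0.20 with BRD0476 (interaction -3.34 ± 0.28), though 1 of its 2 probe sets was called and their mean gave -1.56. Stat2 rose by 4.38 and 2.14, Stat3 by 2.34 and 1.17, and Usp18, a deISGylase that restrains interferon receptors, by 7.14 and 5.61. Ptpn2, a phosphatase of JAKs and STATs, was the sixth negative call at -0.66 ± 0.13, and Pias3 the positive one at 0.36 ± 0.09. The receptor genes Ifngr1 (-0.02), Ifngr2 (0.02), Ifnar1 (-0.14) and Ifnar2 (-0.04) and the kinases Jak1 (0.20) and Tyk2 (-0.06) did not pass the test.

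The interferon regulatory factors are transcription factors that carry the signal to ISRE elements, and 4 of 7 measured had a called negative interaction. Irf1 read 8.17, 8.31 and 8.23 in DMSO, 13.34, 13.41 and 13.19 with DMSO and cytokines, 8.28, 8.25 and 8.30 in BRD0476, and 10.77, 10.80 and 10.88 with both. The group given both lay midway on the log2 scale and overlapped with no other: Irf1 rose 33.8-fold with DMSO and 5.80-fold with BRD0476, an interaction of -2.54 ± 0.16 (adjusted p = 2.35e-10). Irf7, the regulator of type I interferon genes, rose by 6.11 ± 0.10 and 4.54 ± 0.10, so less of its change was missing (-1.57 ± 0.14). Irf2 was at -1.17 ± 0.14 and Irf9, a DNA-binding partner of STAT2, at -0.72 ± 0.17. Irf3, Irf5 and Irf8 were not called, at 0.28, -0.29 and -0.35.

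The upstream sequences of 6 genes show which of these elements stand in front of genes with different interactions, taken from RefSeq on the rat build GRCr8 as the 250 bases before each annotated start, 5′ to 3′ on the gene's strand. Ifit3 (interaction -3.90) is an antiviral gene well below the median of the antiviral genes measured (-1.73). Cxcl10 (-2.74) and Irf1 (-2.54) stand for responses that were partly kept. Socs1 (-3.34) and Cxcl9 (-7.92) stand for responses of which little was left. Nfkbia (-0.29, not called) stands for a response that mostly remained. Capitals mark letters that match GAS (TTCNNNGAA), ISRE (TTTCNNTTTC or its reverse complement GAAANNGAAA) or a κB consensus, searched on both strands. The κB consensus was GGGRNYYYCC or its reverse complement GGRRRNYCCC. N is any base, R is A or G, and Y is C or T.
Ifit3, chr1:241527076-241527325, plus strand: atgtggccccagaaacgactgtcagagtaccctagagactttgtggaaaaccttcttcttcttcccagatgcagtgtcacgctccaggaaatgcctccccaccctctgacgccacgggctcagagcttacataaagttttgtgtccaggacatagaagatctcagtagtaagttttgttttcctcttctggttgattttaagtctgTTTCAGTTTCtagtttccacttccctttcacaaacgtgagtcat
Cxcl10, chr14:15988816-15989065, plus strand: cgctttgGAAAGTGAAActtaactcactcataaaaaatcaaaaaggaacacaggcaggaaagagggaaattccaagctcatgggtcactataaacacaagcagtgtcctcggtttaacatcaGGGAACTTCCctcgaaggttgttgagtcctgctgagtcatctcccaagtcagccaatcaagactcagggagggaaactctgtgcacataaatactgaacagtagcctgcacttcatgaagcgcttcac
Irf1, chr10:38417685-38417934, plus strand: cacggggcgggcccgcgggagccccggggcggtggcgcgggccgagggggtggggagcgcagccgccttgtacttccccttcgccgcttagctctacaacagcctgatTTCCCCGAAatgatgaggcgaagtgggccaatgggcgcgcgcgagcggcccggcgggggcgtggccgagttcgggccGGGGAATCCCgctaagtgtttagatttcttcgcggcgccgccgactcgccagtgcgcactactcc
Socs1, chr10:5389324-5389573, plus strand: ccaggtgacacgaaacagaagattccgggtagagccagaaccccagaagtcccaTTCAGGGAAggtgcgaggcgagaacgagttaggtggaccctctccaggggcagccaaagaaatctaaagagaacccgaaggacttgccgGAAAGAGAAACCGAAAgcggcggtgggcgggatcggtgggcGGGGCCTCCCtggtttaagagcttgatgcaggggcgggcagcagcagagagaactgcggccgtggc
Cxcl9, chr14:16006916-16007165, plus strand: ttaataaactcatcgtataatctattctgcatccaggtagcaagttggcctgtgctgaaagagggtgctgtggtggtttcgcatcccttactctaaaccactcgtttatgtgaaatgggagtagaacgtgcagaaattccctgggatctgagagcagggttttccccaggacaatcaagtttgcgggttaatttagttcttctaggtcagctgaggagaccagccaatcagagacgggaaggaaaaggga
Nfkbia, chr6:78597073-78597322, minus strand: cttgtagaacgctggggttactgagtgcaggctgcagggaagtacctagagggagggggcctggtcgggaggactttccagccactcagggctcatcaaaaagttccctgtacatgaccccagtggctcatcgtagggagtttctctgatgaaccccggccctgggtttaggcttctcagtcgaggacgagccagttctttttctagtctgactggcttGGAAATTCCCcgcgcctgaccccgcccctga
The ISRE match of Ifit3 begins 44 bases before the start. Cxcl10 holds an ISRE match at 243 and a κB match at 128 bases, and Irf1 a GAS match at 142 and a κB match at 65 bases. In Socs1 a GAS match at 196, overlapping ISRE matches at 107 and 101, and a κB match at 66 bases were found. Nfkbia has a κB match at 31 bases and no other match in its window. The window of Cxcl9 holds none of these letters, which says only that these exact letters are not in these 250 bases. Other windows were searched and are not printed. Gbp4, Gbp2 and Irf7 hold an ISRE match, and Tap1 an ISRE and a κB match. Icam1, whose interaction was not called, holds a GAS match and no exact κB match. Its stretch ggaaattcct misses the κB letters by its last base, so the lack of a match covers only the exact letters. Jak2 (-1.58) holds κB matches and no GAS or ISRE match, and Mpeg1 (-5.17) holds no match.

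The same letters were counted over whole gene sets. Of the genes tested, 11700 (82.3%) have a promoter in the table used, and 2.66% of them hold an ISRE match, 6.13% a GAS match and 5.37% a κB match. Among genes that cytokines raised at 6 h in DMSO, an ISRE match stood before 56 of 321 genes with a called negative interaction at 12 h (17.4%) and before 9 of 366 whose interaction was not called (2.46%). The κB letters stood before 9.03% and 9.02% of these sets, and the GAS letters before 8.10% and 6.56%. These sets also differ in the size of the cytokine response. Interactions were called in 37.6% of genes raised by 1 to 2 at 6 h and in 85.7% of those raised by 4 or more. Whether the ISRE share follows response size was not tested. An ISRE match stood before 0 of the 85 genes with a called interaction of 1 or more. A match describes the sequence and is not evidence of binding.

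**Figure D3:**
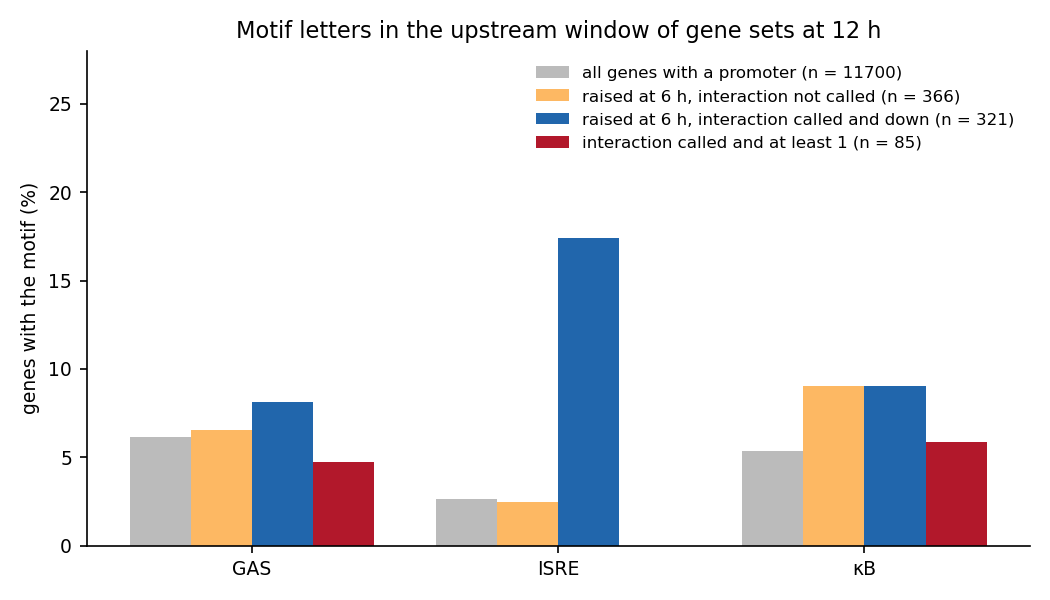
Share of genes (y axis, percent) whose 250 upstream bases hold a GAS, ISRE or κB match, for all genes with a promoter and 3 sets defined by the cytokine change at 6 h and the interaction at 12 h. The ISRE share is 17.4% in raised genes with a called negative interaction and 2.46% in raised genes without a call. The κB shares are 9.03% and 9.02%. Calls were also more frequent in genes with a larger cytokine change at 6 h.

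Every measured antiviral effector and interferon-induced GTPase rose less with BRD0476. All 22 genes of the antiviral and ISG15 list were called negative (median -1.73), with a median cytokine change of 4.28 with DMSO and 2.15 with BRD0476. The interferon-induced GTPases, whose GBP and IRG families attack the vacuoles of intracellular pathogens, counted 7 of 7, or 6 under at least 1 alternative (median -2.36). Gbp2 read 3.40, 4.02 and 3.47 in DMSO, 12.04, 12.20 and 12.11 with DMSO and cytokines, 3.0, 3.41 and 3.10 in BRD0476, and 8.25, 8.23 and 7.93 with both, an interaction of -3.52 ± 0.54. Its group given both lay apart from all others. The range within the antiviral list was wide. Ifit3 rose by 5.56 and 1.66, and Zbp1, a sensor of Z-form nucleic acids, by 2.77 with DMSO, while it read 0.23 above control with BRD0476 (adjusted p = 0.345). Isg15, the ubiquitin-like modifier, rose by 8.02 and 6.86, an interaction of -1.17 ± 0.29. The helicase sensor MDA5 (Ifih1) was at -1.07 and RIG-I, listed as Rig1, at -1.42. The lists were composed with earlier results of these data known, so their counts are a description.

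Genes of antigen presentation also rose less with BRD0476, in class I and class II. The class I and immunoproteasome list had 14 of 17 called negative (median -1.07), and the class II list 7 of 9 (median -1.46). Tap1, a subunit of the peptide transporter, read 7.23, 7.40 and 7.34 in DMSO, 12.97, 12.91 and 12.89 with DMSO and cytokines, 7.21, 7.21 and 7.49 in BRD0476, and 10.50, 10.56 and 10.65 with both. Cytokines thus raised it 48.5-fold with DMSO and 9.64-fold with BRD0476 (interaction -2.33, or -1.47 with the mean of its probe sets); both groups without cytokines overlapped, and the group given both lay between them and DMSO with cytokines. Nlrc5, the class I transactivator, had the largest class I interaction (-2.44 ± 0.22), and B2m, the common light chain, was at -1.07 ± 0.09. The immunoproteasome subunits Psmb8, Psmb9 and Psmb10 were at -1.21, -1.77 and -1.04. The 3 members not called, Calr, Canx and Pdia3, are general chaperones, at -0.09, 0.07 and -0.01. In class II, Cd74, the invariant chain, rose by 6.89 ± 0.13 with DMSO and 3.44 ± 0.13 with BRD0476. Ciita, the class II transactivator, rose by 1.55 with DMSO and read 0.09 above control with BRD0476 (interaction -1.46 ± 0.29). RT1-Db1 did likewise, at 1.79 and 0.14.

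Chemokines and NF-kappaB feedback genes split between responses that BRD0476 cells lacked and responses that they kept at least in part. Of 24 chemokines and colony-stimulating factors, 9 were called negative and 0 positive (median -0.57). Cxcl10 read 3.87, 4.18 and 4.23 in DMSO, 13.39, 13.61 and 13.47 with DMSO and cytokines, 3.71, 4.20 and 4.0 in BRD0476, and 10.76, 10.71 and 10.41 with both. It thus rose by 9.40 with DMSO and 6.66 with BRD0476 (interaction -2.74 ± 0.67, adjusted p = 0.0062), while its relative Cxcl9 overlapped with its controls. Without cytokines both chemokines read close to markers of lineages not expected here, so their rises may be understated. Ccl2, the main monocyte chemoattractant, rose by 5.0 and 2.59. Ccl5 rose by 1.88 with DMSO and differed by -0.32 from control with BRD0476 (adjusted p = 0.175). The neutrophil chemokine Cxcl1 rose by 8.73 and 7.59 (-1.13 ± 0.33). Of 16 NF-kappaB subunits and feedback genes, 5 were negative and 0 positive (median -0.33): Birc3 (-1.27), Nfkbiz (-1.16, or -0.64 with the mean of its probe sets), Tnfaip3 (-0.89), Cyld (-0.88) and Nfkb1 (-0.63).

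Nfkbia read 8.07, 8.09 and 8.02 in DMSO, 11.25, 11.29 and 11.51 with DMSO and cytokines, 7.98, 8.18 and 7.98 in BRD0476, and 11.10, 11.01 and 11.03 with both. All arrays with both agents lay just under those with DMSO and cytokines, and the interaction of -0.29 ± 0.12 did not pass (adjusted p = 0.109). Icam1, an adhesion molecule of leukocyte docking, read 11.79, 11.88 and 11.43 with DMSO and cytokines and 11.03, 11.08 and 11.16 with BRD0476 and cytokines, against group means of 4.54 and 4.28 without. Its interaction was -0.34 ± 0.26 (adjusted p = 0.486). With cytokines, the BRD0476 difference from DMSO was called by limma in both genes. It was -0.30 for Nfkbia (adjusted p = 0.00865) and -0.60 for Icam1 (adjusted p = 0.0174). Cd40, a costimulatory receptor, rose by 6.65 ± 0.18 and 5.47 ± 0.18 and was called (-1.18 ± 0.26), while Cd55, a complement regulator, was positive (0.74 ± 0.12, or 0.41 with the mean of its probe sets), mainly because BRD0476 alone lowered it by 0.50, in a list with 2 negative calls and 1 positive of 11. Of 21 IL-1 and TNF receptor components 5 were negative and 0 positive (median -0.14). The kinase Map3k8 rose by 3.37 and 1.82, the adaptor kinase Ripk2 by 5.30 and 3.95, and Tnf itself by 3.65 and 2.22. The receptors Il1r1 (0.17), Tnfrsf1a (-0.34) and Tnfrsf1b (0.03) and the adaptor Myd88 (-0.33) were not called. Sod2, the mitochondrial superoxide dismutase, rose by 2.18 and 1.45 (-0.73 ± 0.11).

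Nos2, the inducible nitric oxide synthase, is represented by 1 probe set, which did not respond: it read 6.19, 6.18 and 6.12 in DMSO, 6.21, 6.14 and 6.11 with DMSO and cytokines, and 6.05, 6.17 and 6.16 with BRD0476 and cytokines. These arrays overlap, and the interaction was 0.02 ± 0.15 (adjusted p = 0.967). Whether that probe set detects the transcript was not tested. Gch1, which makes the cofactor that nitric oxide synthases need, rose by 1.09 with DMSO and by 0.29 with BRD0476 (-0.80 ± 0.12). BRD0476 raised Gch1 by 0.54 without cytokines and lowered it by 0.26 with them, so most of this interaction lies in cells without cytokines. The list of nitric oxide and arginine genes had 1 negative and 2 positive calls of 17, a share near the 15.3% over all genes. Its median of -0.02 became 0.002 with quantile normalization, and centring the arrays gave 2 negative and 0 positive calls.

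Complement genes were few but large. Of 15, C1s (-5.54), the inhibitor Serping1 (-3.21 ± 0.24), C1r (-3.02 ± 0.20) and C3 (-0.96 ± 0.17) were called, and the list median was -0.16. Among death receptors, caspases and RIP kinases, 7 of 14 were negative and 0 positive (median -0.46). Tnfsf10, the death ligand TRAIL, rose by 4.99 ± 0.18 with DMSO and 2.30 ± 0.18 with BRD0476. Casp12 read 4.10, 4.30 and 4.29 in DMSO, 7.07, 6.57 and 6.59 with DMSO and cytokines, 4.11, 4.50 and 4.24 in BRD0476 and 4.50, 4.46 and 4.49 with both. The group given both overlapped with BRD0476 alone, at an interaction of -2.32 ± 0.20. The inflammatory caspase Casp4 rose by 4.54 and 2.73, the receptor Fas by 3.52 and 2.72, and the pore-former Gsdmd by 1.51 and 0.54. In the BCL2 family 4 were negative and 1 positive of 16 (median -0.09). Bbc3, the death-promoting protein PUMA, rose by 1.04 with DMSO and read 0.12 above control with BRD0476 (-0.93 ± 0.14), and the survival protein Mcl1 rose by 0.69 with DMSO and read 0.08 above control with BRD0476 (-0.61 ± 0.14). Leaving out replicate 1 of DMSO, replicate 3 of BRD0476 or replicate 2 of BRD0476 with cytokines left 3 negative and 0 positive calls in this family.

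**Figure D4:**
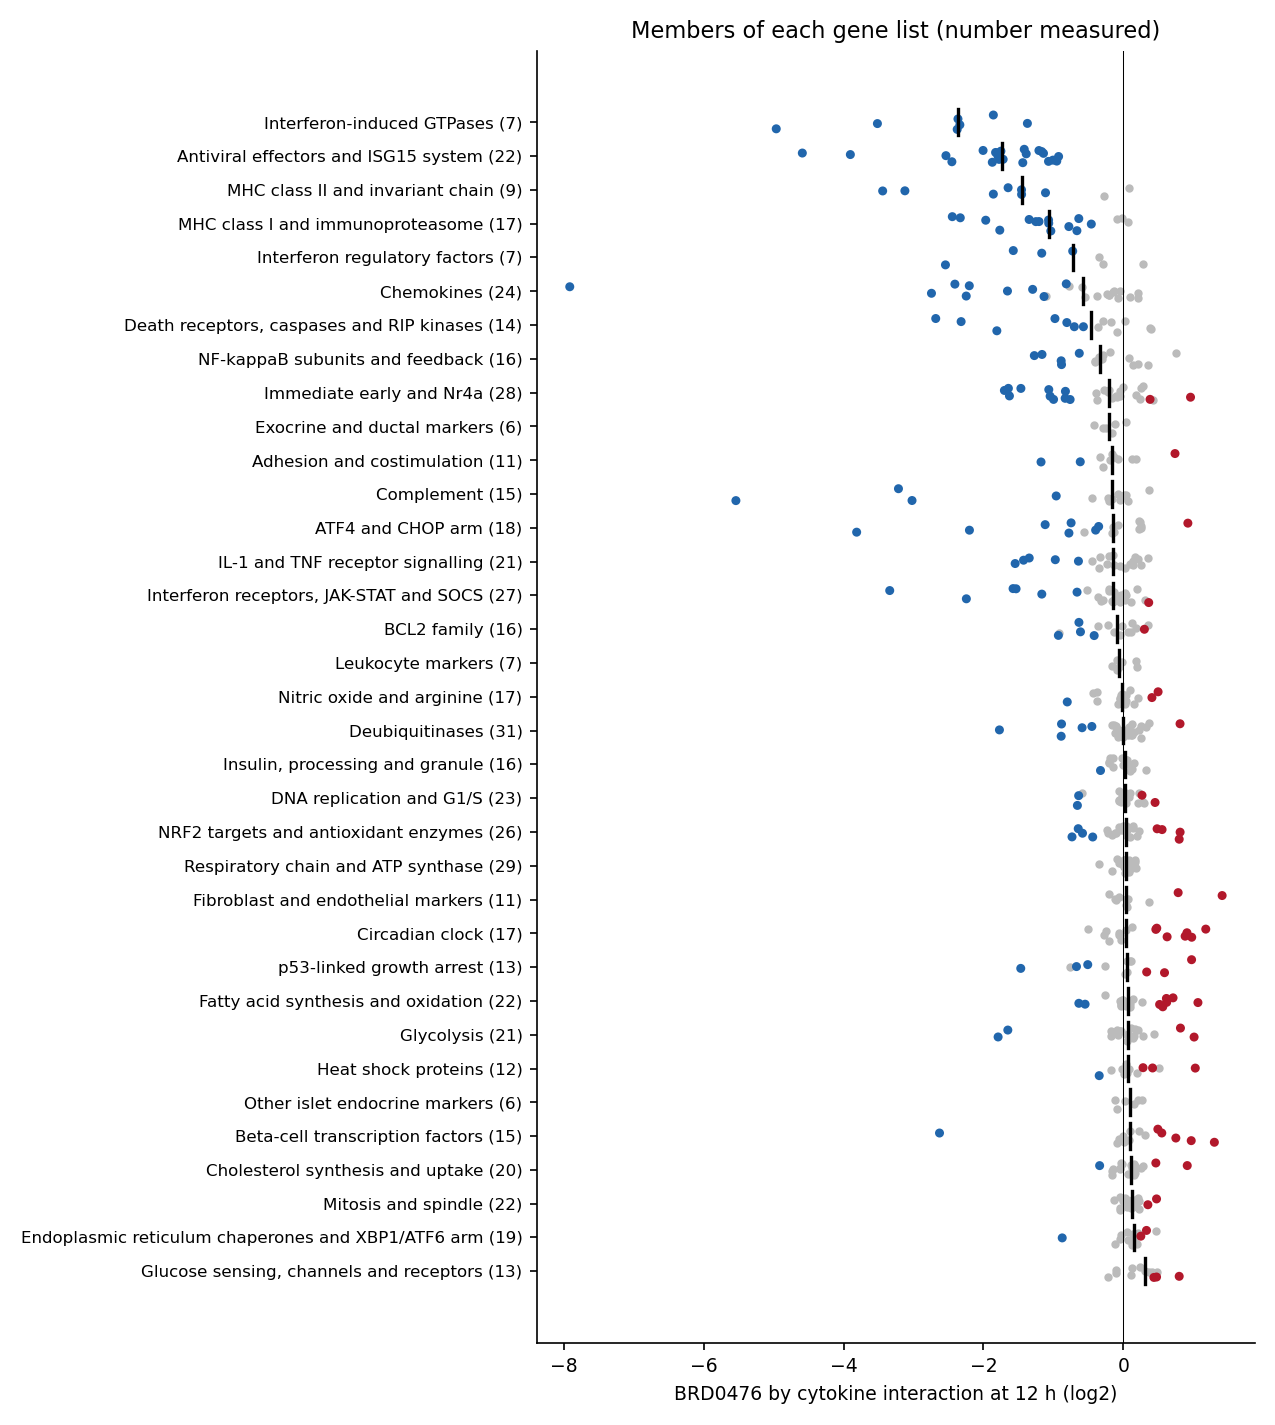
BRD0476 by cytokine interaction at 12 h (x axis, log2) of every measured member of 35 gene lists, with called members in blue (negative) or red (positive), others in grey and the list median as a black line. The GTPase and antiviral medians lie at -2.36 and -1.73, and those of most metabolic and beta-cell lists near the 0.03 of all genes.

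In the ATF4 and CHOP arm of the stress response, 7 of 18 members were negative and 1 positive (median -0.15). Atf3, a stress-induced transcription factor, read 4.91, 4.75 and 4.79 in DMSO, 8.92, 8.65 and 8.83 with DMSO and cytokines, 5.20, 5.24 and 5.40 in BRD0476, and 5.93, 5.07 and 5.34 with both. Both BRD0476 groups overlapped, slightly above DMSO, and the interaction was -3.81 ± 0.26 (adjusted p = 1.32e-09). Ddit3, which encodes CHOP, rose by 1.53 ± 0.10 and 0.76 ± 0.10. Atf4 rose by 0.79 with DMSO and read 0.04 above control with BRD0476, and Trib3 rose by 1.49 and 0.37. Without cytokines, BRD0476 raised Atf4 by 0.83 and Trib3 by 0.95. With cytokines the BRD0476 differences were 0.09 and -0.17, neither past the test, so the interactions of both lie mainly in cells without cytokines. In Chac1, which degrades glutathione, BRD0476 alone raised the level from 7.05, 7.04 and 7.21 to 8.78, 8.77 and 8.73. With cytokines it read 9.91, 9.86 and 9.37 with DMSO and 9.25, 9.14 and 9.12 with BRD0476, so its interaction of -2.20 ± 0.14 came mostly from the change without cytokines. Of 19 endoplasmic reticulum chaperone and XBP1 or ATF6 genes, 1 was negative (Edem1, -0.87) and 2 positive, a share near the 15.3% over all genes. Hspa5, the chaperone BiP, was at 0.25 ± 0.08 (adjusted p = 0.0419), a fragile call that was lost with arrays centred, with the replicate block, with the arrays at 12 h alone and with any of 10 of the 12 arrays left out (the highest adjusted p over the alternatives was 0.384).

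Immediate early genes gave 10 negative and 2 positive calls of 28 (median -0.21). Egr1 rose by 1.82 ± 0.11 with DMSO and read 0.17 ± 0.11 above control with BRD0476. Maff rose by 2.83 and 1.13, Jun by 2.30 and 0.84, and Zfp36, which destabilises cytokine mRNAs, by 2.90 and 1.27. The 2 positive calls were Nr4a1 (0.96 ± 0.23) and Dusp1 (0.38 ± 0.10), which cytokines lowered with DMSO. BRD0476 without cytokines raised Nr4a1 by 1.49. Gadd45b, a stress gene grouped here with p53-linked growth arrest, rose by 3.19 and 1.73. That list had 3 negative and 3 positive calls of 13, the positive ones being Sesn1 (0.98), Gadd45a (0.59) and Aen (0.34). BRD0476 alone lowered Sesn1 by 0.60 and Gadd45a by 0.84.

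The 10 largest positive interactions were all falls under cytokines in DMSO that were smaller with BRD0476. Pdzrn3, a ubiquitin ligase with PDZ domains, read 8.24, 8.30 and 8.25 in DMSO, 5.28, 4.85 and 4.80 with DMSO and cytokines, 8.44, 8.40 and 8.44 in BRD0476, and 8.12, 8.02 and 8.03 with both. The arrays given both lay slightly under those without cytokines and far above DMSO with cytokines, at an interaction of 2.91 ± 0.14 (adjusted p = 4.52e-12). Mest, an imprinted gene, read 10.56, 10.60 and 10.56, then 8.11, 7.91 and 7.20 with cytokines, in DMSO. With BRD0476 it read 10.83, 10.88 and 10.96 and, with cytokines, 10.41, 10.95 and 11.12, so those groups overlapped (2.77 ± 0.30). Wnt4, a secreted signal of the Wnt family, fell by 2.37 ± 0.06 with DMSO and by 0.52 ± 0.06 with BRD0476. Hbegf, like Areg a ligand of the EGF receptor, fell by 2.86 ± 0.13 and 0.75 ± 0.13, so these 2 ligands had interactions of opposite sign (2.11 and -4.95). The other 6 of the 10 largest were Slc15a2 (2.09), Fam163b (2.08), Nptx1 (2.06), Tmem100 (2.01, or 1.32 with the mean of its probe sets), Ppp1r3b (1.74, or 0.90) and Slc35d3 (1.70). Of these, Slc15a2, a peptide transporter, fell by 3.31 with DMSO and 1.22 with BRD0476. Ppp1r3b, which targets a phosphatase to glycogen, fell by 2.26 and 0.52. BRD0476 without cytokines lowered Slc15a2 by 0.90 and Tmem100 by 0.63, and with cytokines it raised them by 1.19 and 1.38. Part of these 2 interactions thus lies in cells without cytokines.

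Beta-cell transcription factors counted 5 positive and 1 negative of 15 (median 0.10). Nkx6-1, a regulator of beta-cell identity, read 8.83, 8.69 and 8.78 in DMSO, 7.15, 6.90 and 6.96 with DMSO and cytokines, 9.36, 9.11 and 9.35 in BRD0476, and 8.74, 8.85 and 8.85 with both. Cells given both overlapped with untreated cells, and the interaction was 1.30 ± 0.16 (adjusted p = 4.28e-06). BRD0476 alone raised Nkx6-1 by 0.51, and with BRD0476 cytokines still lowered it by 0.46. Mafa, an activator of the insulin gene, fell by 0.98 ± 0.07 with DMSO and by 0.23 ± 0.07 with BRD0476. Nkx2-2 (0.97 ± 0.24), Myt1 (0.55 ± 0.12) and Hnf4a (0.50 ± 0.10) were also positive. Pdx1 differed with cytokines by 0.07 with DMSO and -0.02 with BRD0476, neither past the test, and its interaction was -0.09 ± 0.11 (adjusted p = 0.723). Tcf7l2, a Wnt effector at which diabetes risk has been mapped, was the negative call. It read 6.50, 6.41 and 6.61 in DMSO, 9.27, 8.80 and 9.30 with DMSO and cytokines, 6.33, 6.30 and 6.45 in BRD0476, and 6.34, 6.35 and 6.35 with both. Of the 4 groups, DMSO with cytokines alone stood above the rest (-2.63 ± 0.21). The mean of the probe sets of Tcf7l2 gave -1.33.

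The insulin genes themselves had no called interaction. Ins1 had group means of 14.58, 14.56, 14.59 and 14.58, with an interaction of 0.00 ± 0.07, and Ins2 was at 0.06 ± 0.09. These levels are near the highest on the arrays, where a difference may not be measurable, so they do not show that insulin mRNA was unchanged. Of 16 insulin, processing and granule genes, 1 was called, Ero1b at -0.33 ± 0.10 (adjusted p = 0.0243), and the list's median of 0.02 turned to -0.05 when arrays were centred. Ero1b lost its call when its probe sets were averaged (highest adjusted p over the alternatives 0.384). Of 13 glucose-sensing genes, channels and receptors, 3 were positive and 0 negative (median 0.31), against 8.38% positive over all genes. Over the alternatives, 2 to 4 were called. Among them Adra2a (0.48 ± 0.10) lost its limma call when its probe sets were averaged (0.21, adjusted p = 0.482). Slc2a2, the glucose transporter GLUT2, fell by 0.29 ± 0.06 with DMSO and read 0.14 ± 0.06 above control with BRD0476 (0.44 ± 0.08). Gcgr, the glucagon receptor, rose by 0.46 and 1.26 (0.80 ± 0.10), and BRD0476 alone lowered it by 0.48.

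In the metabolic lists most called interactions were under 1 in size, and the shares called are read against the 15.3% over all genes. In glycolysis, 2 of 21 were negative and 2 positive (median 0.07). Pfkfb3, which makes the activator of phosphofructokinase, read 8.95, 8.89 and 8.95 in DMSO, 10.39, 10.26 and 10.20 with DMSO and cytokines, 8.01, 7.88 and 8.11 in BRD0476, and 7.81, 7.64 and 7.66 with both. It was lower with BRD0476 in both conditions, and cytokines lowered it there by 0.30 ± 0.08 but raised it by 1.35 ± 0.08 with DMSO (-1.65 ± 0.11, or -0.79 with the mean of its probe sets). Pfkp, a phosphofructokinase, rose by 2.35 and 0.56, and Txnip, which restrains glucose uptake, changed by -1.21 and -0.20. Fatty acid genes counted 6 positive and 2 negative of 22. Elovl6, an elongase, fell by 1.10 with DMSO and read -0.03 from control with BRD0476 (1.07 ± 0.14), Fads1, a desaturase, fell by 1.52 and 0.81, and Fasn fell by 0.50 with DMSO and read 0.02 above control with BRD0476. NRF2 and antioxidant genes counted 4 and 4 of 26: the glutathione enzyme Gclc (0.81, or 0.43 with the mean of its probe sets) and Srxn1 (0.80, or 0.44) had fallen with cytokines in DMSO. In cholesterol synthesis and uptake, 2 were positive and 1 negative of 20 (1 and 0 with arrays centred); Abca1, the cholesterol exporter, fell by 1.36 and 0.45. BRD0476 alone lowered Abca1 by 0.72, and with cytokines the BRD0476 difference was 0.19 (adjusted p = 0.144), so most of its interaction lies in cells without cytokines. The 29 respiratory chain and ATP synthase genes had 0 calls by limma, also under each alternative fit, with 1 at an unadjusted p under 0.05, and values between -0.34 and 0.19.

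Few genes responded in opposite directions or more strongly with BRD0476. In 91 genes both cytokine responses were called with opposite signs and the interaction was called. The examples with the largest interactions, chosen after their values were seen, were C3h15orf48 (2.13 with DMSO, -0.44 with BRD0476), Dock5 (1.79, -0.33), Aldoc (1.49, -0.32) and Afp (1.13, -0.61). In 47 genes both responses had the same sign and the one with BRD0476 was larger. Ano4, of the anoctamin channel family, read 7.18, 7.03 and 7.23 with DMSO and cytokines and 8.27, 8.03 and 8.24 with BRD0476 and cytokines, against 5.80, 5.44 and 5.36 in DMSO alone and 5.52, 5.39 and 5.69 in BRD0476 alone. It rose 3.06-fold and 6.28-fold (1.04 ± 0.20). Pde1b, a cyclic nucleotide phosphodiesterase, rose by 1.42 and 2.45 (1.03, or 0.60 with the mean of its probe sets), and Fbp2, a gluconeogenic phosphatase, by 0.58 and 1.76. In 127 genes the response was called with BRD0476 and not with DMSO. Kcnc1, a voltage-gated potassium channel, read 5.58, 5.35 and 5.43 in DMSO, 5.24, 5.06 and 5.29 with DMSO and cytokines, 5.41, 5.36 and 5.66 in BRD0476, and 6.72, 6.93 and 6.71 with both. The group given both stood above the other 3, at 1.56 ± 0.20 (adjusted p = 6.63e-06). Etv5 and Cds1 were among the 12 genes with the larger BRD0476 change at baseline, with rises of 0.89 and 0.84 (the mean of the probe sets of Etv5 gave an interaction of -0.77), as were Chac1 and Trib3.

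The genes of deubiquitinases were examined because USP9X is a proposed target. Usp9x read 9.97, 9.98 and 10.02 in DMSO, 9.62, 9.51 and 9.78 with DMSO and cytokines, 9.80, 9.78 and 9.93 in BRD0476, and 9.74, 9.80 and 9.67 with both. Its interaction was 0.26 ± 0.11 and did not pass (adjusted p = 0.131), although it passed with array weights and when replicate 3 of DMSO with cytokines was left out. At 6 h the interaction of Usp9x was called by limma, at 0.89 ± 0.11 (adjusted p = 1.81e-06). Of 31 deubiquitinases 5 were negative and 1 positive (median -0.01), a share near the 15.3% called over all genes. Usp25, which acts in innate immune signalling, rose by 2.99 and 1.22 (-1.77 ± 0.15, or -0.94 with the mean of its probe sets), and Usp1, which acts in DNA repair, had the positive call (0.81 ± 0.11). These are mRNA levels, and protein or enzyme activity was not measured.

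The interaction at 6 h, measured on the other 12 arrays, was called for 4717 genes (33.2%), 18.8% positive and 14.4% negative, and 1506 genes were called at both times. These are 69.4% of the calls at 12 h and 31.9% of those at 6 h, and 1410 had the same sign. Across genes, which are not independent replicates, the interactions at both times had r = 0.63 (Pearson) and 0.46 (Spearman). The difference between the times was called for 1699 genes (12%), 772 of them higher (5.43%) and 927 lower (6.52%) at 12 h. For Cxcl9 the interactions were -7.87 at 6 h and -7.92 at 12 h. For Irf7 they were -3.34 and -1.57 (difference 1.77 ± 0.20), for Ddit3 -2.26 and -0.78 (1.49 ± 0.21), and for Icam1 -2.03 and -0.34 (1.69 ± 0.37). Socs1 went the other way, from -1.68 to -3.34 (-1.66 ± 0.40). Nkx6-1 was at -0.02 at 6 h and Pdzrn3 at 0.75, against 1.30 and 2.91 at 12 h.

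In 96 genes called at both times the sign turned and the difference was called. The clearest cases, chosen after their values were seen, included Nfkbiz, an atypical IκB protein, from 1.80 to -1.16 (difference -2.96 ± 0.25, adjusted p = 1.96e-07), and Egr1 from 1.28 to -1.64. Tnf went from 0.99 to -1.43. Nfil3, a repressor linked to the clock, went from -1.07 to 1.18. Counts over lists follow. Circadian clock genes had 12 negative and 1 positive call of 17 at 6 h and 7 positive and 0 negative at 12 h, with the difference called up in 11. Their 12 h median of 0.04 turned to -0.02 when arrays were centred. Mitosis genes had 19 positive calls of 22 at 6 h and 2 at 12 h, Kif20a (0.48) and Kif23 (0.35), both of which lost their call when arrays were centred; the difference was called down in 12. Cholesterol genes had 16 positive calls of 20 at 6 h, and the difference was called down in 12. The antiviral list was called negative in 22 of 22 at both times, with 5 differences up and 0 down.

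**Figure D5:**
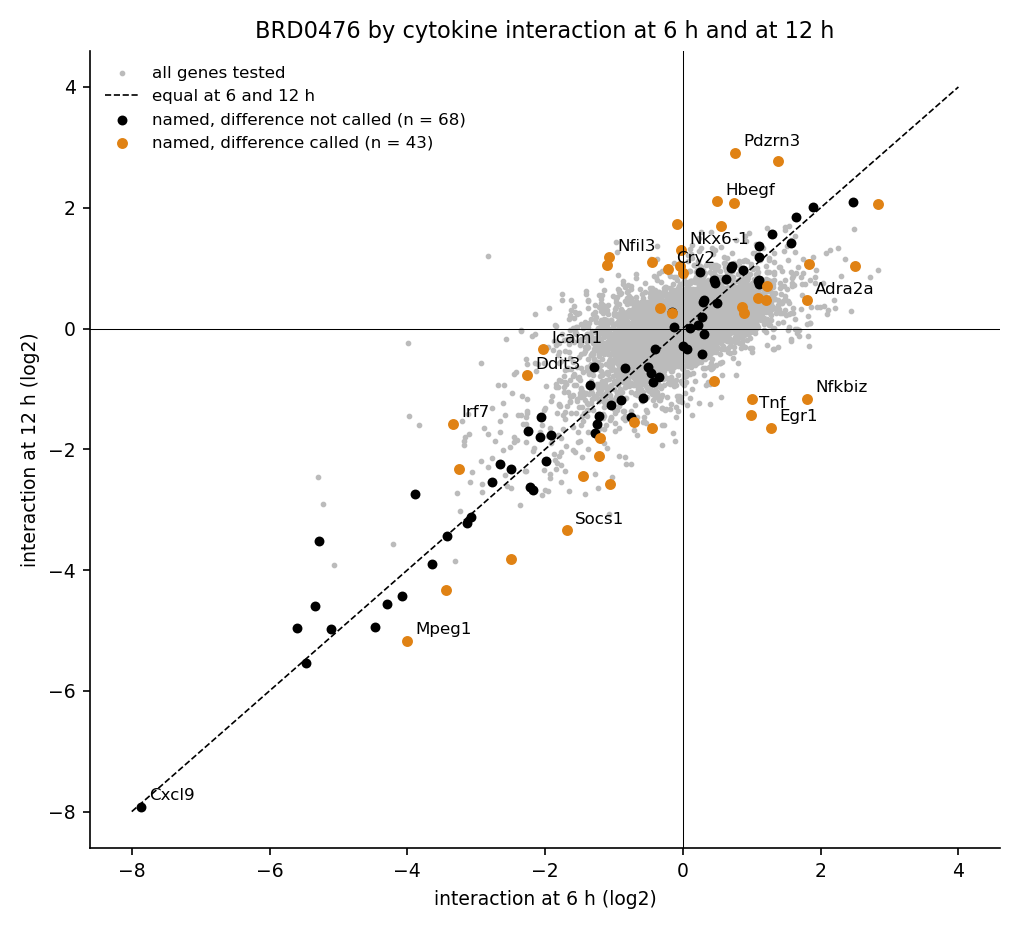
Interaction at 6 h (x axis) and at 12 h (y axis), both log2, for all 14217 genes in grey and 111 named genes, 43 of them (orange) with a called difference between the times. Cxcl9 lies on the dashed line of equal values at -7.87 and -7.92, while Nfkbiz, Egr1 and Tnf lie at the lower right and Nfil3 at the upper left.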

How the data were processed

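Per the labels' protocols, biotin-labelled RNA was hybridised to single-colour Affymetrix arrays. Per the submitters' processing notes, the authors used RMA; its version is not given in the sources used here. The deposited intensity values are linear, and were taken to log2 with no further normalization. Of 31099 probe sets, 57 are controls, 20832 carry 1 symbol in the platform annotation, 436 several and 9831 none. For 4525 genes with more than 1 probe set, the brightest on average over all arrays was taken, which gave 14217 genes. limma 3.58.1 (R 4.3.3) fitted 8 group means on all 24 arrays (lmFit, eBayes, 16 residual degrees of freedom). Benjamini-Hochberg adjustment ran over all genes, with 0.05 as the threshold for a call. The median SE of the interaction was 0.144. With 3 arrays a group, an exact permutation test of 3 against 3 cannot give a two-sided p under 0.1.

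Named genes were the 10 largest called interactions in each direction, 2 called members of each list (or 1 if none was called), and a panel: Nos2, Cxcl10, Cxcl9, Irf1, Socs1, Jak2, Nfkbia, Icam1, Sod2, Ins1, Ins2, Pdx1, Mafa, Nkx6-1, Slc2a2, Hspa5, Ddit3 and Usp9x (1 further gene is not reported here). This gave 94 genes; all other genes with values in the text were chosen after their values were seen. The members and lists were chosen with earlier results of these data known. Alternatives were the 12 h arrays alone, a replicate block, array weights, another prior, averaged probe sets, a filter on dim genes, median centring, quantile normalization, each array left out, a threshold on size and linear intensities. Same-numbered arrays at 12 h had deviations correlating between -0.471 and 0.364, so the numbers were not taken to pair arrays. Array number limits the precision. The fit was tested on simulated data.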

Additional observations from a re-analysis of the deposited data

Results flagged for a closer look

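The interaction differed between 12 h and 6 h, by limma's test of the difference itself with Benjamini-Hochberg adjustment over all genes, in 43 of the 111 genes named, against 12% of all genes. Of these, 5 (Nfkbiz, Egr1, Nfil3, Lad1 and LOC102553824) were chosen for a sign that differs between the times, and others for a large interaction at 12 h, so the count is a description. Values below are the interaction at 12 h minus that at 6 h on the log2 scale.

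It was lower at 12 h in 24 genes. With inflammatory or immediate early roles were Nfkbiz (-2.96), Egr1 (-2.93), Tnf (-2.42), Socs1 (-1.66), Atf3 (-1.32), Mpeg1 (-1.17), Nlrc5 (-0.99), Sectm1b (-0.90), Map3k8 (-0.84). The others were LOC102553824 (-2.17), C3h15orf48 (-1.51), Ano4 (-1.46), Edem1 (-1.32), Adra2a (-1.32), Pfkfb3 (-1.21), Dock5 (-0.90), Nptx1 (-0.77), Elovl6 (-0.76), Kif20a (-0.73), Usp9x (-0.63), Aldoc (-0.62), Ddah2 (-0.59), Fads1 (-0.51), Kif23 (-0.51).

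It was higher at 12 h in 19 genes. With roles in interferon or stress responses, protein folding, adhesion or antigen transport were Hspa5 (0.41), Sdf2l1 (0.67), Tap1 (0.92), Ddit3 (1.49), Icam1 (1.69), Irf7 (1.77). Linked to the clock were Cry2 (1.19) and Nfil3 (2.25). The others were Abca1 (0.92), Pde1b (1.07), Slc35d3 (1.15), Nkx6-1 (1.33), Fam163b (1.33), Mest (1.39), Mgll (1.54), Hbegf (1.61), Ppp1r3b (1.82), Lad1 (2.15), Pdzrn3 (2.16). Of the genes in both paragraphs, Hspa5, Sdf2l1, Mgll, Kif20a, Kif23, Ddah2 and Adra2a had an interaction at 12 h whose call was lost under at least 1 alternative.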

How the results depend on the processing

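The counts of called genes stayed within 1.5 times the reported ones under all alternatives but a threshold on size, which left 115 positive and 328 negative calls. Leaving out each array in turn gave 946 to 1270 positive and 852 to 1016 negative calls. For the difference between the times it gave 1440 to 1867 calls; that alternative was chosen after seeing the data. Of the 2170 genes, between 1769 and 2155 were also called under each other setting that kept all arrays at 12 h, and 0 of these turned sign. With the replicate block 1122 positive and 932 negative calls were made, and 1520 for the difference between the times. The block ended the call of Hspa5 and changed that of no other gene named. Over genes raised at 6 h the median interaction was -0.414 to -0.574 with an array left out, the last without replicate 3 of DMSO with cytokines. Over genes lowered at 6 h it was 0.36 to 0.413 with an array left out, and 0.311 with arrays centred. For the named genes, 868 of 887 values kept their direction and side of the threshold with all arrays, and 1288 of 1332 with an array left out; 0 turned sign. Averaging the probe sets moved 20 named values by over 1.5 times, among them Kdr (0.72), Cry2 (0.57) and Mgll (0.59), and those given beside the genes. The weaker calls were those of Hspa5, Sdf2l1, Hsph1, Ero1b, Hrk, Mgll, Pmvk, Kif20a, Kif23, Ddah2 and Adra2a. On linear intensities, 10 of the called genes had the opposite sign, 1 of them with an interaction of at least 1 in size. Of the 328 genes at -1 or below, 28 had both groups without cytokines under the lower quartile of all values, where a level is close to background and folds are understated.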
